A study of Mus musculus and Acomys cahirinus with 84 samples.

Results

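Primary skin fibroblasts of wild mice were compared 24 h after a single dose of 20 Gy of gamma radiation with untreated cultures of the same replicate numbers. The comparison was chosen by its labels alone: the mouse libraries marked as wild mouse fibroblasts at 24 h, with 4 libraries at 20 Gy and 4 untreated, which are 8 of the 84 libraries of the series. Both groups hold fibroblasts grown from skin, carry no engineered allele in the labels and belong to 1 batch (B1), with RNA extracted by the same Purelink kit. For each of the replicate numbers R1 to R4 the library names repeat 1 code at every dose, read here as the animal of origin, so that each animal gave 1 untreated and 1 irradiated culture.

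The series measured polyA RNA by stranded sequencing in fibroblasts from a spiny mouse species, Acomys cahirinus, and from wild and C56BL6 mice, with and without irradiation, at 24 h and at 12 d. The same mouse count table holds the other groups used below: wild mouse fibroblasts 24 h after 10 Gy (4 libraries), C56BL6 mouse fibroblasts (spelled as in the labels) untreated and 24 h after 20 Gy (4 and 4 libraries), and wild mouse fibroblasts untreated and 12 d after 20 Gy (4 and 4 libraries). "Wild" is all that the labels give of the donors' genetic background.

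Double-strand breaks activate the kinases ATM and ATR, which stabilise the transcription factor p53. p53 then raises the cell cycle inhibitor p21 (Cdkn1a), its own inhibitor Mdm2 and a set of genes for cell death and repair. p21 keeps the RB family of proteins bound to E2F and MuvB factors, and the genes for DNA replication and mitosis, which these factors control, are then repressed. In fibroblasts a lasting arrest can end in senescence, a state with loss of lamin B1 and secretion of cytokines, growth factors and proteases.

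Each library held 28.01 to 35.98 M reads counted to genes, and the totals of the groups overlapped. The irradiated libraries had more genes detected, 22376 to 22729 against 20635 to 21765, and a higher share of mitochondrial transcripts, 1.6 to 1.7% against 1.27 to 1.54% (exact two-sided permutation test, p = 0.029 for both, the smallest that 4 against 4 libraries allow). On principal components of the 8 libraries the first axis, with 58.3% of the variance, set animals R1 and R3 apart from R2 and R4. Dose appeared on the fourth axis, with 7.09%, where every animal moved the same way: R1 from 15.14 to -7.816, R2 from 25.68 to -25.74, R3 from 26.04 to -31.55 and R4 from 22.4 to -24.15. Animal R1 moved least. Libraries of the same number deviated together, with correlations of 0.87 to 0.91, against -0.68 to 0.37 for different numbers. Fibroblast markers summed to 22000 to 36500 counts per M counted reads (CPM) untreated and 19800 to 31100 CPM at 20 Gy. Among them Lum and Fap, which many skin fibroblasts carry, reached at most 2.11 and 5.51 CPM in any library. Scaled over all mouse 24 h libraries, Dcn had 56.7, 0.219, 3.54 and 2.34 CPM in untreated R1 to R4. Markers of keratinocytes summed to 1.59 to 3.65 CPM untreated and 2.65 to 6.51 CPM at 20 Gy. Those of melanocytes summed to 0.75 to 1.22 and 0.922 to 1.42 CPM, and those of endothelial cells to 1.25 to 8 and 1.5 to 6.2 CPM. Leukocyte markers summed to 17.1 to 50 and 21.9 to 46.6 CPM. Krt5, Epcam, Adgre1 and Cd3e were under 0.1 CPM everywhere, whereas Csf1r, Cd14, Cd68 and Lyz2 reached 44, 11, 6.86 and 5.36 CPM. Skeletal muscle markers summed to 20.7 to 1360 CPM untreated and 39.8 to 1540 CPM at 20 Gy. They were led by Des and Acta1, with Myod1, Pax7 and Myf5 under 0.1 CPM. Adipocyte markers, led by Fabp4, summed to 3.82 to 40.7 and 3.34 to 37.8 CPM. Smooth muscle markers, led by Myh11, ranged from 50.9 to 1500 CPM untreated and from 68.4 to 1460 CPM at 20 Gy, so they varied between animals far more than with dose.

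With the animal as a block, 1816 of 14473 genes tested changed at an adjusted p under 0.05 (12.5%); such genes are called below. Of these, 1065 rose (7.36%) and 751 fell (5.19%). These shares of all genes tested are the background for the counts of each gene list in this comparison. The rises were larger: the median log2 change was 0.67 among called genes that rose and -0.46 among those that fell, and 284 rose but 40 fell at least 2-fold. The direction was the same in all 4 animals for 1715 of the 1816 genes. Of 1088 long noncoding RNAs tested, 78 were called higher (7.17%, near the 7.36% of all genes) and 7 lower (0.643%, against 5.19%). The call rests on comparing each animal with itself: without the block edgeR called 0 genes, with 856 at an unadjusted p under 0.05, and without animals R1, R2, R3 or R4 it called 2399, 961, 642 and 800 genes. Among 93 called genes chosen for naming, 3, 23, 32 and 31 missed the threshold without R1, R2, R3 or R4, while Mdm2, Cdkn1a, Ccng1, Pidd1, Cd80, Kif11, Ccna2, Mki67, Lmnb1, Col3a1, Ptx3 and Loxl3 passed it each time. In bulk RNA, fewer cells of a kind and less RNA per cell cannot be told apart, and this holds for every change given here.

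The core of the p53 response rose in all 4 animals. Of 16 genes for p53 itself, its regulators and its arrest and feedback targets, 9 rose and 0 fell, against 12.5% of all genes called, with a list median log2 change of 0.37 beside 0.01 over all genes tested. Mdm2 (ENSMUSG00000020184, GRCm39 chromosome 10, 117524780 to 117546730), the ubiquitin ligase that degrades p53, stood at 149, 111, 103 and 144 CPM in the untreated cultures of R1 to R4 and at 204, 361, 306 and 384 CPM after 20 Gy. Every irradiated culture lay above every untreated one, and R1 gained least. Its log2 change was 1.29 ± 0.16 (SE, n = 4 pairs, adjusted p = 0.000803).

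Cdkn1a (ENSMUSG00000023067, chromosome 17, 29309936 to 29319701), which encodes p21, went from 295, 96.1, 170 and 144 CPM to 429, 380, 407 and 362 CPM. The irradiated cultures were alike and the untreated ones were not: R1 began highest and gained least. The log2 change was 1.28 ± 0.17 (adjusted p = 0.00102). Ccng1, a cyclin G that takes part in p53 feedback, rose from 541, 334, 328 and 433 CPM to 822, 1200, 955 and 1090 CPM (log2 1.33 ± 0.15, adjusted p = 0.00058). Trp53inp1, a stress protein that promotes arrest and death, rose from 35.8, 15.1, 13.9 and 32.3 CPM to 63.2, 65.2, 86.4 and 89.4 CPM (log2 1.74 ± 0.22, adjusted p = 0.000803). Neither gene's groups overlapped.

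The other 5 core genes called had overlapping groups. Gdf15, a secreted stress cytokine, changed by 1.17 ± 0.2, the antiproliferative Btg2 by 0.67 ± 0.15, the p53 inhibitor Mdm4 by 0.62 ± 0.12, the RNA-binding Zmat3 by 0.44 ± 0.11 and the stress sensor Sesn2 by 0.3 ± 0.08 on the log2 scale (adjusted p = 0.00345, 0.015, 0.00647, 0.0217 and 0.0381). Trp53 mRNA itself was not called at -0.15 ± 0.08 (adjusted p = 0.262), with 96 to 120 CPM untreated and 90.9 to 106 CPM irradiated. Gadd45a (-0.25 ± 0.12), Sesn1 (-0.1 ± 0.12) and Ppm1d (0.22 ± 0.12), which textbooks list as p53 targets, were not called either. The count of core genes was 12, 7, 5 and 6 without R1, R2, R3 and R4.

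**Figure D1:**
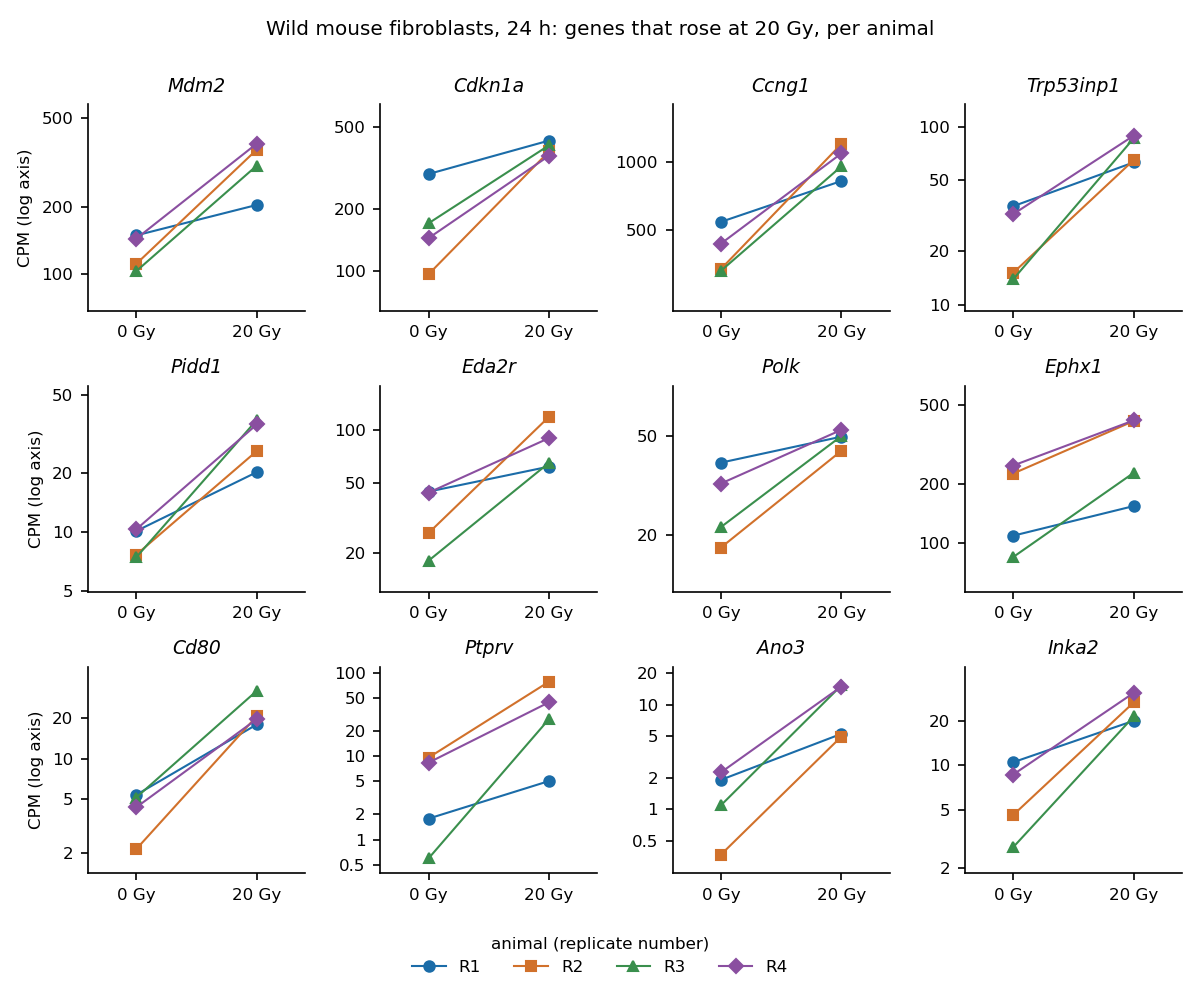
Normalised levels (CPM, log axis) of 12 genes that rose, in the untreated (0 Gy) and irradiated (20 Gy) culture of each animal; each line joins the cultures of 1 animal. Every line slopes upward, and the line of R1 is the flattest for each of the 12 genes.

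Every gene of the death list rose: 12 of 12 p53 targets of cell death were called higher, with a median of 0.59. Pidd1, a scaffold that activates caspase-2, went from 10.1, 7.64, 7.41 and 10.3 CPM to 20.2, 25.9, 37.3 and 35.4 CPM. Even the lowest irradiated culture lay well above the highest untreated one, and the log2 change was 1.72 ± 0.17 (adjusted p = 0.000321). Eda2r, a death receptor of the TNF receptor family, rose from 44.8, 26.1, 18.2 and 44.2 CPM to 62.1, 119, 65.3 and 90.1 CPM (1.38 ± 0.22, adjusted p = 0.00251). Bax, the pore-forming effector, rose by only 0.34 ± 0.08 (adjusted p = 0.0144), with the smallest step in R1. It had 50.6 to 64.1 CPM across untreated cultures and 65.1 to 79.5 CPM across irradiated ones.

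The BH3-only genes Pmaip1 (Noxa) and Bbc3 (Puma) rose by 1.78 ± 0.29 and 0.55 ± 0.16 on the log2 scale (adjusted p = 0.00314 and 0.0405). Pmaip1 was low everywhere, with 6.46, 0.276, 0.719 and 1.14 CPM untreated and 11.2, 2.02, 4.76 and 3.93 CPM irradiated, and R1 again carried the highest untreated level. The death receptors Fas (0.7 ± 0.2, adjusted p = 0.0408) and Tnfrsf10b (0.59 ± 0.08, adjusted p = 0.00118) and the nuclease Aen (0.51 ± 0.08, adjusted p = 0.00234) rose as well. Fas was higher after 20 Gy in R2, R3 and R4 but lower in R1, with 23.1 CPM untreated and 19.5 CPM irradiated (scaled over all mouse 24 h libraries). Perp was called (0.86 ± 0.2, adjusted p = 0.0192) although 2 of the animals hardly express it: R2 had 0.0307 CPM untreated and 0 irradiated. Without R1, R2, R3 and R4 the count was 12, 8, 6 and 6, and Bax missed the threshold without R2, R3 or R4.

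Of 12 p53 targets of metabolism and repair, 5 rose and 0 fell, with a median of 0.33, and 5 were called whichever animal was left out. Polk, a translesion polymerase, went from 39, 17.9, 21.6 and 32.2 CPM to 49.5, 43.5, 49.8 and 52.7 CPM, without overlap (0.88 ± 0.14, adjusted p = 0.00246). Ephx1, an epoxide hydrolase, rose by 0.89 ± 0.12, the carnitine palmitoyltransferase Cpt1c by 0.71 ± 0.1, the excision endonuclease Ercc5 by 0.67 ± 0.11 and the AKT repressor Phlda3 by 0.63 ± 0.09 on the log2 scale (adjusted p = 0.00121, 0.00118, 0.00281 and 0.00118). Ddb2 and Xpc, damage sensors of nucleotide excision repair, were not called: Ddb2 stood at 1.38 to 2.73 CPM untreated and 1.36 to 2.99 CPM irradiated.

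Outside those lists, the largest rises belonged to genes of low level. Cd80 (ENSMUSG00000075122, chromosome 16, 38275923 to 38316697), a costimulatory ligand for T cells, went from 5.4, 2.15, 5.16 and 4.37 CPM to 17.8, 20.5, 31.5 and 19.5 CPM. All irradiated cultures stood far above all untreated ones, and animal R1 gained least. Its log2 change was 2.41 ± 0.2 (adjusted p = 0.000124). Ptprv (ENSMUSG00000097993), a receptor tyrosine phosphatase known as a p53 target in mice, rose from 1.78, 9.57, 0.594 and 8.33 CPM to 5.02, 77.9, 27.8 and 44.1 CPM (2.96 ± 0.38, adjusted p = 0.000803). Its groups overlapped through R1, which ended below the untreated level of R2 and R4.

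Ano3, a member of the anoctamin family of membrane proteins, rose from 1.91, 0.368, 1.09 and 2.25 CPM to 5.26, 4.96, 15.3 and 14.9 CPM (2.83 ± 0.31, adjusted p = 0.000479). Inka2, an inhibitor of the kinase PAK4, rose from 10.5, 4.6, 2.78 and 8.66 CPM to 20.1, 26.8, 21.5 and 31.1 CPM (2.02 ± 0.25, adjusted p = 0.000768). The Wnt ligand Wnt2 rose by 2.1 ± 0.22, the mTORC1 inhibitor Ddit4l by 2.3 ± 0.32, the RNA-binding Celf5 by 2.21 ± 0.28, the R-spondin receptor Lgr6 by 1.95 ± 0.39 and the sulfatase Sulf2 by 1.76 ± 0.21 on the log2 scale (adjusted p = 0.000389, 0.00149, 0.000887, 0.00799 and 0.00069). Ano3, Inka2, Wnt2 and Celf5 had groups that did not overlap. The placental hormone gene Prl2c3 rose by 2.7 ± 0.3 (adjusted p = 0.000479), from 1.05, 6.35, 0.25 and 36.4 CPM to 2.16, 84.5, 1.39 and 184 CPM, but it has near-identical copies, so its reads cannot be assigned to 1 gene with certainty.

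Genes of DNA replication fell, with list medians below 0 in R2, R3 and R4 but not in R1. Of 34 members, 13 fell and 0 rose, with a median of -0.46. Mcm6 (chromosome 1, 128259311 to 128287516), a subunit of the replicative helicase, stood at 66.6, 133, 100 and 129 CPM untreated and at 63.2, 72.1, 72.3 and 45.9 CPM irradiated (-0.73 ± 0.17, adjusted p = 0.0177). R1 was flat and R4 lost most. Tk1, thymidine kinase, fell from 25.1, 38.1, 43.1 and 30.3 CPM to 22.8, 17.9, 26.5 and 13.5 CPM (-0.77 ± 0.15, adjusted p = 0.00612). Pcna, the sliding clamp of the polymerases, fell from 27, 61.8, 35.9 and 48.9 CPM to 24.7, 40.3, 23.7 and 23.7 CPM (-0.6 ± 0.12, adjusted p = 0.00974), and is also known as a p53 target.

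The S-phase cyclins Ccne1 (-0.49 ± 0.12) and Ccne2 (-0.86 ± 0.22), the licensing factor Cdc6 (-0.83 ± 0.22), the helicase subunits Mcm2 and Mcm3 (-0.61 ± 0.15 and -0.61 ± 0.17), the GINS subunit Gins1 (-0.75 ± 0.21) and the methylation reader Uhrf1 (-0.7 ± 0.17) also fell (adjusted p = 0.019, 0.0298, 0.0321, 0.0201, 0.0396, 0.04 and 0.0209). Cdc6 was the member whose groups did not overlap, with 7.84, 9.48, 11 and 14.2 CPM against 7.77, 5.53, 6.46 and 4.08 CPM. Ribonucleotide reductase stood apart from this: Rrm1 and Rrm2 had changes of 0.11 ± 0.08 and 0.15 ± 0.12 and were not called (adjusted p = 0.436 and 0.443), nor was E2f1 at 0.05 ± 0.09 (adjusted p = 0.771). Without R1 the list had 26 genes called lower and a median of -0.63, and without R2, R3 and R4 it had 4, 1 and 1 called; Mcm6 then missed the threshold each time and Pcna without R3 or R4.

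The promoters of the replication genes are shown because the E2F motif is frequent in this list. Windows from 250 bases before to 50 bases after each start were read from the GRCm39 genome for 14431 of the tested genes, with the start of the canonical transcript in the GENCODE annotation, and both strands were searched for TTTGGCGC and TTTCGCGC with their reverse complements GCGCCAAA and GCGCGAAA. A match was present in 10 of 34 replication promoters (29.4%) against 1.32% of all promoters, 2.4% of those of called genes that fell and 0.753% of those that rose. In the 30-base stretches below, written in the direction of the gene, capitals mark that motif and, where present, an inverted CCAAT box (ATTGG).
Mcm6, chr1:128287471-128287500, minus strand, motif 37 bases before the start: gATTGGacgggTTTGGCGCgaagtagctca
Cdc6, chr11:98798647-98798676, plus strand, motif 40 bases after the start: gaaggctgaagtagagcggcTTTGGCGCga
Mcm3, chr1:20890487-20890516, minus strand, motif 38 bases after the start: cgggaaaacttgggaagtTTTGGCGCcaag
Gins1, chr2:150751494-150751523, plus strand, motif 19 bases after the start: ggttgagcctaTTTGGCGCCAAAgcgagga
The start of Mcm6 used here, 128287452, lies inside the gene's span, which begins further upstream with another transcript. In Gins1 a match on each strand overlaps into 1 palindrome. Members with and without a match fell about as often: 4 of 10 with it were called lower (median -0.51) and 9 of 24 without it (median -0.46). A match is a description of these letters and not of binding.

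Mitotic genes fell in part. Of 40 members, 17 fell and 0 rose, with a median of -0.34. Ccna2, cyclin A2, which acts from S phase into mitosis, went from 52.7, 61.6, 92.9 and 83.3 CPM to 48.5, 32.4, 48 and 35.9 CPM. All irradiated cultures were below all untreated ones, R1 by the smallest step, and the log2 change was -0.81 ± 0.14 (adjusted p = 0.00421). The kinesin Kif11 (ENSMUSG00000012443), which separates the spindle poles, fell from 30.8, 58.1, 60.2 and 56.4 CPM to 26.6, 29.8, 34.1 and 24.1 CPM (-0.81 ± 0.13, adjusted p = 0.00323). Its groups overlapped through the low untreated value of R1.

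Cenpf, a kinetochore protein, fell from 28.8, 39.8, 49.8 and 44.3 CPM to 27, 18.4, 27.4 and 23.5 CPM without overlap (-0.75 ± 0.14, adjusted p = 0.00574). Mki67, which codes for the proliferation antigen Ki-67, went from 122, 132, 199 and 193 CPM to 96.1, 68.9, 119 and 83.9 CPM (-0.81 ± 0.11, adjusted p = 0.00157), and also did not overlap. The APC/C inhibitor Fbxo5 fell, with a change of -1.08 ± 0.22 (adjusted p = 0.00999), and the kinases Aurkb (-0.85 ± 0.17) and Plk1 (-0.56 ± 0.13) and the transcription factors Mybl2 (-0.92 ± 0.21) and Foxm1 (-0.58 ± 0.13), which drive the mitotic programme, fell too (adjusted p = 0.0077, 0.016, 0.0149 and 0.0127).

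Several other genes of the mitotic list were not called. Ccnb1, cyclin B1, had 35.9, 47.4, 62.1 and 54.5 CPM untreated and 48.1, 45.2, 55.5 and 46.2 CPM irradiated, a change of -0.02 ± 0.11 (adjusted p = 0.946). R1 was higher after 20 Gy and the other 3 animals lower. Ube2c, the ubiquitin-conjugating enzyme of the APC/C, had 36.7, 47.3, 51.1 and 51.4 CPM untreated and 64.1, 49.3, 63.8 and 45 CPM irradiated (0.25 ± 0.13, adjusted p = 0.249). Cenpa (0.15 ± 0.08), Nusap1 (0.15 ± 0.12), Pttg1 (0.15 ± 0.09), Hmmr (0.03 ± 0.08), Kif20a (-0.07 ± 0.08), Aurka (-0.08 ± 0.1) and Top2a (-0.2 ± 0.13) were outside the call as well. The mitotic list had 23, 8, 4 and 8 genes called lower without R1, R2, R3 and R4, and Cenpf missed the threshold without R3.

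Promoter elements of the mitotic genes are shown next, since the CHR element (TTTGAA, or TTCAAA on the other strand) is the motif bound by the MuvB complex. It occurred in 20 of 40 mitotic promoters (50%) against 14% of all promoters and 16.5% of those of called genes that fell. It was also frequent in other lists, with 5 of 12 promoters each in the p53 death and p53 metabolism lists (41.7%), whose called genes rose, and 5 of 13 in the lamin list (38.5%). CHR together with a CCAAT box (CCAAT or ATTGG) occurred in 17 of 40 (42.5%) against 5.92% of all. Capitals mark the CHR and, in Kif23, the CCAAT box, in the direction of the gene on GRCm39.
Kif11, chr19:37364799-37364828, plus strand, 12 bases after the start: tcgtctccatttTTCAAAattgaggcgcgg
Cenpf, chr1:189420264-189420293, minus strand, 31 bases after the start: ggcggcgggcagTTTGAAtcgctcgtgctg
Racgap1, chr15:99549515-99549544, minus strand, 5 bases after the start: ctggtgcgtgatTTTGAAccggatctggcg
Plk1, chr7:121758666-121758695, plus strand, 42 bases after the start: ttgtaacgttcccagcgccgcgTTTGAAtt
Kif23, chr9:61854062-61854091, minus strand, 6 bases before the start: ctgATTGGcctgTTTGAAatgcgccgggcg
Aurkb, chr11:68936336-68936365, plus strand, 119 bases before the start: ttgggacacagtTTCAAActagtaaaaaga
The 6 genes are the mitotic members with a match that were called lower. Of the 20 mitotic genes with a CHR, 6 were called lower (median -0.24), and of the 20 without one, 11 were (median -0.47); the letters in this window alone did not sort the genes that fell from the others.

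**Figure D2:**
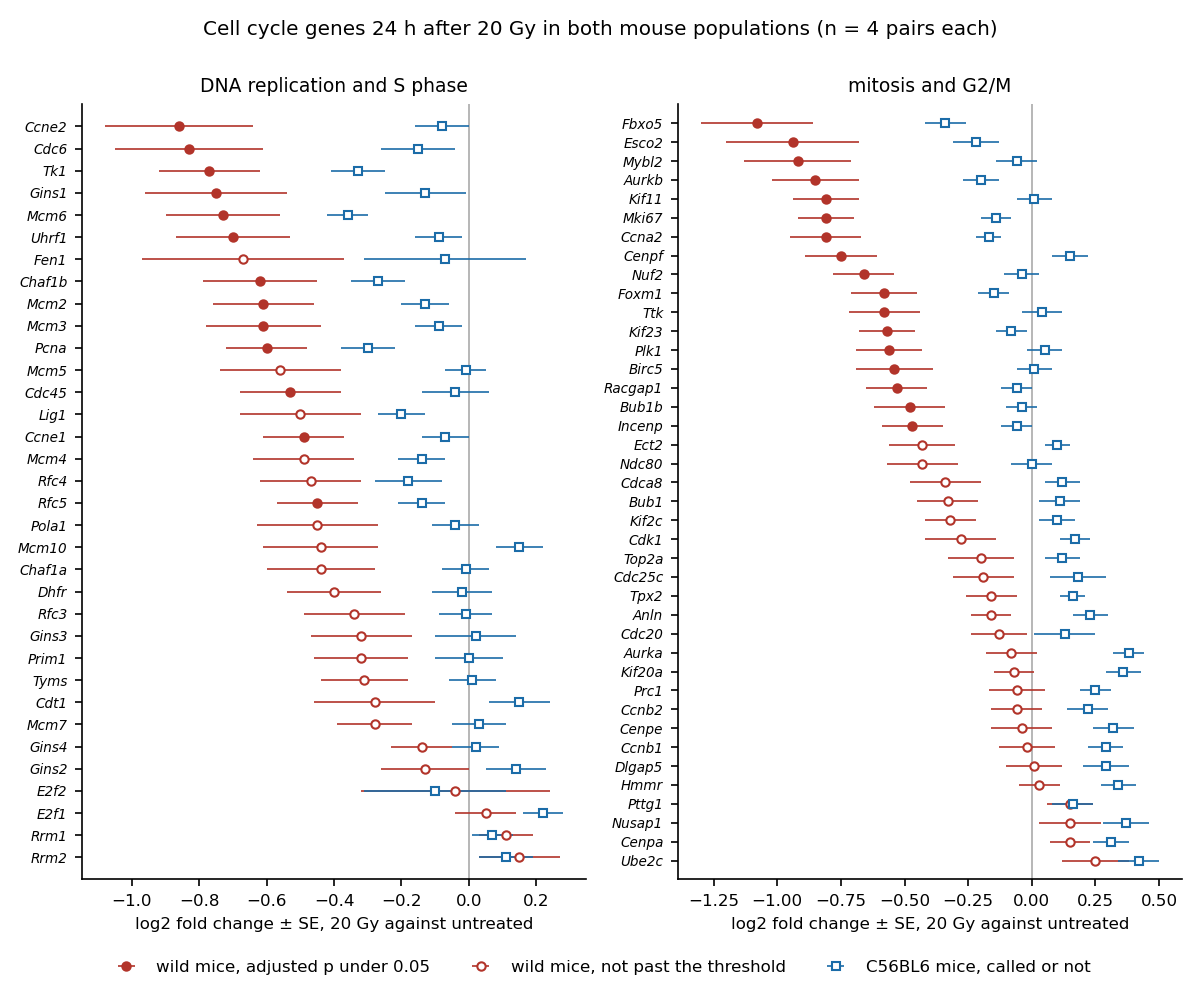
Log2 fold change ± SE at 20 Gy against untreated (n = 4 pairs) for each gene of the replication list (left) and the mitotic list (right), in wild mice (circles, filled where called) and C56BL6 mice (squares). In wild mice the genes run from Fbxo5 at -1.08 to Ube2c at 0.25 in the mitotic panel, and the C56BL6 square lies to the right of the circle for all 40 mitotic genes.

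Genes of homologous recombination and the Fanconi pathway, which repair breaks and crosslinks in S and G2 phase, went the same way as the replication genes: 4 of 18 fell, 0 rose, and the median was -0.34. These were the nuclease Exo1 (-0.74 ± 0.18), the helicase Blm (-0.54 ± 0.14), the recombinase paralogue Rad51c (-0.64 ± 0.17) and the core complex member Fancb (-0.64 ± 0.15), with adjusted p = 0.0243, 0.0299, 0.0309 and 0.0171. Exo1 went from 6.85, 11.2, 10.2 and 13.8 CPM to 6.76, 6.08, 6.4 and 5.36 CPM, and its groups did not overlap. Brca1 (-0.39 ± 0.14) and Brca2 (-0.27 ± 0.11) were not called (adjusted p = 0.102 and 0.131). The list had 9 called without R1 and 0 without R2, R3 or R4 (edgeR).

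Of 21 damage signalling and end joining genes, 5 fell and 0 rose, against 5.19% lower and 7.36% higher over all genes tested. The list median was -0.09. The histone H2ax, whose phosphorylation marks breaks, went from 17, 15.9, 20.1 and 24.7 CPM to 16.9, 11.6, 11 and 13.2 CPM (-0.56 ± 0.14, adjusted p = 0.028). Nbn (-0.46 ± 0.11), Xrcc6 (-0.39 ± 0.11), Parp1 (-0.34 ± 0.08) and the ubiquitin ligase Rnf168 (-0.33 ± 0.1) fell as well (adjusted p = 0.0157, 0.0369, 0.0153 and 0.045). The transcripts of the kinases Atm (-0.26 ± 0.1), Atr (-0.09 ± 0.1) and Prkdc (0.08 ± 0.1) were not called. With R1, R2, R3 and R4 left out 7, 1, 0 and 0 of the 21 were called by edgeR.

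Animal R1 differed from the others in its cell cycle genes before and after irradiation. Among the untreated cultures it had the lowest level of 37 of 40 mitotic genes (92.5%), 28 of 34 replication genes (82.4%) and 17 of 18 recombination genes (94.4%), against 29% of all genes tested. Mitotic genes summed to 1700, 2380, 2750 and 2480 CPM in the untreated cultures of R1 to R4 and to 1870, 1820, 2250 and 1600 CPM after 20 Gy. R1 was thus lowest before irradiation and above R2 and R4 after it, and the other 3 animals lost. Replication genes summed to 934, 1700, 1380 and 1750 CPM untreated and 1050, 1380, 1130 and 1150 CPM irradiated, and again R1 gained while the others lost. Within R1, 30 of 40 mitotic and 23 of 34 replication genes were higher at 20 Gy (medians 0.14 and 0.09), whereas in R4 2 of 40 and 0 of 34 were (medians -0.76 and -0.99).

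The summed p53 core level of R1 was high before irradiation, although R1 had the lowest untreated value of 5 of the 16 members (31.2%, near the 29% of all genes tested). The core list summed to 1980, 1220, 1720 and 1600 CPM untreated, with R1 highest, and to 2470, 2940, 3120 and 3100 CPM at 20 Gy, with R1 lowest. Its median change within R1 was 0.08, against 0.66, 0.52 and 0.45 in R2, R3 and R4. The death list kept its direction in every animal, with medians of 0.34, 0.69, 0.78 and 0.71 and 11, 11, 12 and 12 of 12 genes higher. The part of these untreated levels in the smaller changes of R1 was not tested.

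**Figure D3:**
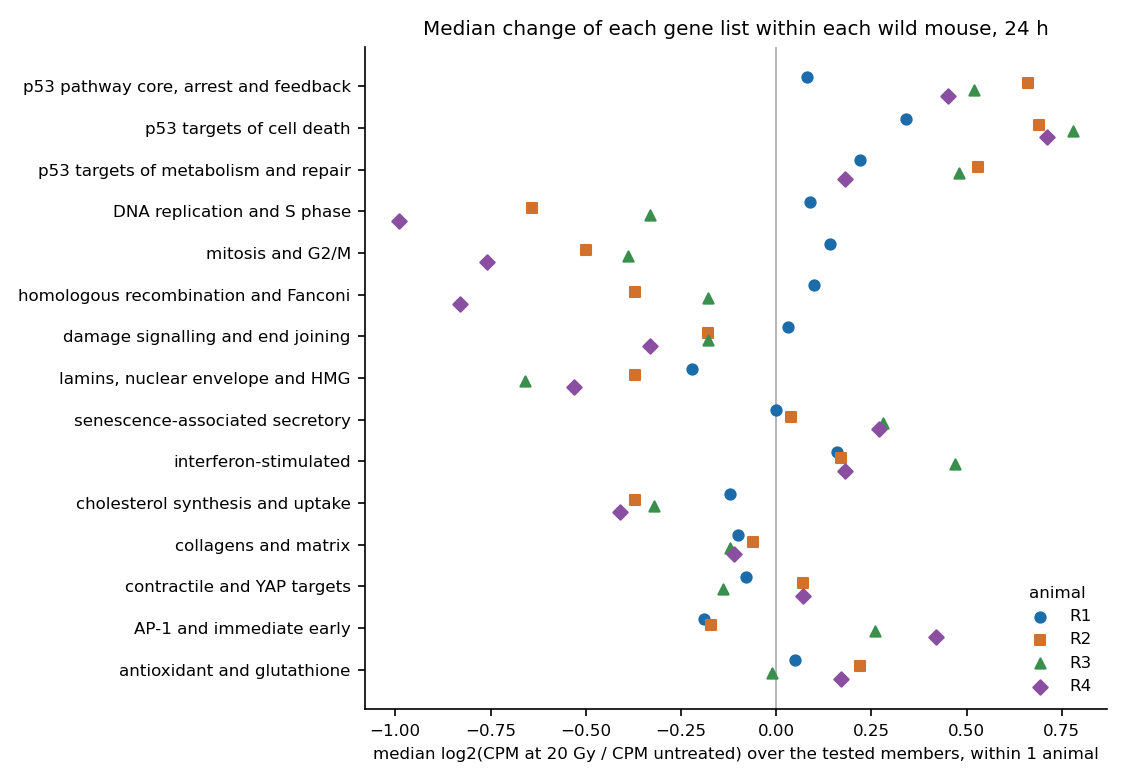
Median log2 ratio of the 20 Gy to the untreated culture over the tested members of each gene list, computed within each animal (R1 to R4). R1 lies at 0.14 for mitotic and 0.09 for replication genes, where the other animals lie between -0.33 and -0.99, while all 4 animals are above 0 for the p53 lists.

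Lamins and high mobility group (HMG) proteins changed in both directions: of 13 genes, 7 fell and 2 rose, with a median of -0.5, and 8 to 10 were called with any 1 animal left out. Lmnb1, lamin B1 of the nuclear envelope, fell from 42.3, 65.6, 92.8 and 61.2 CPM to 32.6, 39.8, 49 and 31.6 CPM (-0.75 ± 0.1, adjusted p = 0.00118), in R1 as in the others. Lmnb2 fell from 23.4, 28.8, 34.7 and 24.1 CPM to 18.2, 17.4, 19.2 and 13.4 CPM without overlap (-0.7 ± 0.11, adjusted p = 0.00212). The lamin B receptor Lbr (-0.5 ± 0.1, adjusted p = 0.00744) and the nuclear membrane protein Tmpo (-0.59 ± 0.1, adjusted p = 0.00336) fell too, while Lmna was not called (0.25 ± 0.08, adjusted p = 0.0631). All 3 Hmgb genes fell: Hmgb2, a chromatin protein lost in senescence, by 0.87 (SE 0.12), Hmgb3 by 0.83 (SE 0.15) and Hmgb1 by 0.6 (SE 0.08) on the log2 scale (adjusted p = 0.0014, 0.00453 and 0.00143). Both Hmga genes rose. Hmga2, a chromatin protein of growing and senescent fibroblasts, went from 159, 32.8, 223 and 93.8 CPM to 251, 95.2, 413 and 180 CPM (1.0 ± 0.12, adjusted p = 0.0006), higher in each animal though the groups overlapped, and Hmga1 changed by 0.88 ± 0.14 (adjusted p = 0.00297).

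Among the 12 largest falls were genes for secreted proteins. Ptx3, a soluble pattern recognition protein, went from 16.8, 886, 22.5 and 902 CPM to 7.59, 319, 7.04 and 339 CPM. The animals differed far more than the doses, with R2 and R4 high and R1 and R3 low, yet every animal lost by a similar ratio, and the log2 change was -1.43 ± 0.09 (adjusted p = 3.8e-05). Sfrp1, a secreted Wnt inhibitor, was also high in R2 and R4, from 26.1, 2430, 74.8 and 1230 CPM to 14.7, 747, 45.2 and 526 CPM (-1.14 ± 0.14, adjusted p = 0.000662). It fell in every animal, by a larger ratio in R2 and R4 than in R1 and R3. Abi3bp, a matrix protein, fell from 2.27, 166, 5.25 and 503 CPM to 0.768, 39.3, 2.28 and 191 CPM (-1.63 ± 0.13, adjusted p = 0.000124). R2 and R4, which the first principal axis sets apart, are also the high animals for these genes.

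Rtn4rl2, a Nogo receptor homologue, fell from 13.6, 11.8, 8.06 and 4.34 CPM to 3.43, 2.77, 2.08 and 1.53 CPM, without overlap (-1.91 ± 0.15, adjusted p = 0.000124). The metallothionein Mt2 (-1.9 ± 0.23), the peptide hormone Apln (-1.72 ± 0.15), the secreted Lgi2 (-1.73 ± 0.33), the IGF-binding protein protease Pappa2 (-1.16 ± 0.12), Map3k7cl (-1.42 ± 0.15), the MYC target Cdca7 (-1.24 ± 0.18) and the cytokine signalling inhibitor Socs3 (-1.12 ± 0.13) also fell (adjusted p = 0.000696, 0.000143, 0.00666, 0.000389, 0.000413, 0.00166 and 0.000526). Igfbp3 was called at -1.62 ± 0.4 (adjusted p = 0.022), with 62.9 CPM in untreated R4 against 0.969 to 11.3 CPM in the other untreated cultures.

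Among matrix genes, 5 of 33 tested fell and 2 rose (median -0.16), against 5.19% and 7.36% of all genes, with 8, 6, 6 and 4 called without R1, R2, R3 and R4. Col3a1 (ENSMUSG00000026043, chromosome 1, 45350698 to 45395840), collagen III, went from 2590, 2170, 1130 and 2390 CPM to 1480, 1050, 567 and 1190 CPM. Each animal lost a near-equal share (-0.97 ± 0.08, adjusted p = 0.000124). The collagen I genes Col1a1 (-0.38 ± 0.09) and Col1a2 (-0.39 ± 0.09) and the crosslinking enzyme Lox (-0.55 ± 0.08), all among the most abundant transcripts, fell less (adjusted p = 0.022, 0.0175 and 0.0013). Loxl3, a lysyl oxidase of the same family, rose instead, from 228, 287, 106 and 264 CPM to 509, 531, 256 and 545 CPM (1.09 ± 0.08, adjusted p = 0.000118). It rose by a similar ratio in every animal, and its groups overlapped because R3 was low at both doses.

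Cholesterol synthesis and uptake genes fell by small steps: 9 of 24 were called lower, 0 higher, and the median was -0.27, with 10, 6, 5 and 5 called without R1, R2, R3 and R4. Cyp51, lanosterol demethylase, went from 62.2, 98.6, 99.5 and 127 CPM to 43.3, 69.5, 60.1 and 70.2 CPM, lower in each animal (-0.65 ± 0.08, adjusted p = 0.000796). Sqle (-0.52 ± 0.09), Hmgcs1 (-0.46 ± 0.08) and Srebf2 (-0.43 ± 0.08), the transcription factor of the pathway, fell as well (adjusted p = 0.00404, 0.00469 and 0.0044). Contractile and YAP target genes were mostly not called: 1 of 17 rose (Lmod1, 0.27 ± 0.08, adjusted p = 0.0409) and 1 fell (Amotl2, -0.3 ± 0.08, adjusted p = 0.0329), the median was 0.00, and Acta2, smooth muscle actin, had a change of 0.00 ± 0.08 (adjusted p = 0.985). Of this list 4, 0, 0 and 1 genes were called without R1, R2, R3 and R4 (edgeR).

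Secretory genes known from senescence changed in part. Of 37 listed, 30 could be tested, of which 8 rose and 2 fell, with a median of 0.15. The growth factor Fgf2 rose from 101, 11.3, 25.4 and 23.2 CPM to 183, 37, 55.3 and 42.7 CPM (1.13 ± 0.12, adjusted p = 0.000479), with R1 high at both doses. The EGF receptor ligands Areg and Ereg rose: Ereg from 76, 39.8, 100 and 52.6 CPM to 122, 114, 154 and 77.6 CPM (0.84 ± 0.13, adjusted p = 0.00275), and Areg, barely expressed, from at most 0.219 CPM to 0.62, 3, 1.05 and 0.436 CPM (2.83 ± 0.44, adjusted p = 0.00232). Areg reached the level of the expression filter only in its irradiated cultures, so its place among the 8 that rose depended on the rise itself. The adhesion molecule Icam1 went from 4.58, 4.33, 3.34 and 4.73 CPM to 5.88, 12.8, 14.7 and 12.1 CPM (1.36 ± 0.22, adjusted p = 0.00308), with R1 rising least.

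The cytokines of the interleukin 6 family diverged. Il11 rose by 1.42 ± 0.23 and Lif by 0.61 ± 0.11 on the log2 scale (adjusted p = 0.00308 and 0.00541), while Il6 was not called at -0.11 ± 0.11 (adjusted p = 0.557), with 10.8 to 27.9 CPM untreated and 12.5 to 22.5 CPM irradiated. The chemokine Ccl2 rose by 0.59 ± 0.09 (adjusted p = 0.00283), and the collagenase Mmp13 by 0.93 ± 0.2 (adjusted p = 0.0105), the latter in animals R1 and R3, which express it. Il1a, Il1b and Csf2 reached at most 0.231, 0.0288 and 0.132 CPM in any of the 8 libraries, and Cxcl2 at most 0.281 CPM. The list had 8 to 13 genes called with any 1 animal left out.

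Of 30 interferon-stimulated genes listed, 27 were tested, of which 4 rose and 0 fell. Over all genes tested 7.36% rose and 5.19% fell. The list median was 0.22, and 23 of the 27 had a log2 change above 0, beside 7536 of all 14473 genes. Ifit3 went from 1.19, 0.92, 0.937 and 0.988 CPM to 3.49, 1.5, 2.99 and 1.43 CPM (1.14 ± 0.25, adjusted p = 0.014), without overlap. The peptide transporter Tap1 (0.6 ± 0.15), Oasl2 (0.72 ± 0.19) and the chemokine Ccl5 (1.05 ± 0.29) were the others (adjusted p = 0.0282, 0.0299 and 0.0373), and Isg15 was not called at 0.03 ± 0.18 (adjusted p = 0.93). With R1, R2, R3 and R4 left out 2, 2, 0 and 2 of these genes were called (edgeR), and Ifit3 missed the threshold without R3.

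Immediate early genes moved apart between animals: 4 of 20 rose and 1 fell, with a median of -0.05. Without R1, R2, R3 and R4 the calls were 7, 5, 0 and 0 higher and 1 lower each time, and without R1 the median was 0.14. Fos had 23.6, 29.7, 62.4 and 12.2 CPM untreated and 9.6, 16.9, 75.3 and 16.1 CPM irradiated, lower in R1 and R2 and higher in R3 and R4 (-0.34 ± 0.23, adjusted p = 0.362). Dusp1, a MAP kinase phosphatase, rose by 0.63 ± 0.13, the transcription factors Klf4 by 0.47 ± 0.1, Fosl1 by 0.5 ± 0.13 and Egr3 by 0.44 ± 0.13 (adjusted p = 0.00974, 0.0129, 0.0264 and 0.0437). Myc fell from 72.5, 118, 102 and 90.1 CPM to 51.5, 62.4, 53.2 and 71.3 CPM, without overlap (-0.67 ± 0.1, adjusted p = 0.00234). Of 16 antioxidant genes, 3 rose and 2 fell (median 0.08). Nqo1, a quinone reductase under NRF2 control, rose from 23.3, 25.7, 31.2 and 10.8 CPM to 41.6, 75.9, 90 and 29.8 CPM (1.35 ± 0.12, adjusted p = 0.000193), and the NRF2 target Hmox1, heme oxygenase, rose by 0.37 ± 0.09 (adjusted p = 0.0195). The NRF2 targets Txnrd1 (0.3 ± 0.1, adjusted p = 0.0635), Gclc, Gclm, Srxn1 and Slc7a11 (-0.17 to 0.06) were not called. The glutathione peroxidase Gpx3 rose by 0.49 ± 0.09 and the glutathione reductase Gsr fell, at -0.33 ± 0.1 (adjusted p = 0.00424 and 0.0403). Extracellular superoxide dismutase, Sod3, fell from 36.6, 100, 19.6 and 28.4 CPM to 16.9, 52.3, 15.9 and 16 CPM (-0.8 ± 0.12, adjusted p = 0.00188).

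**Figure D4:**
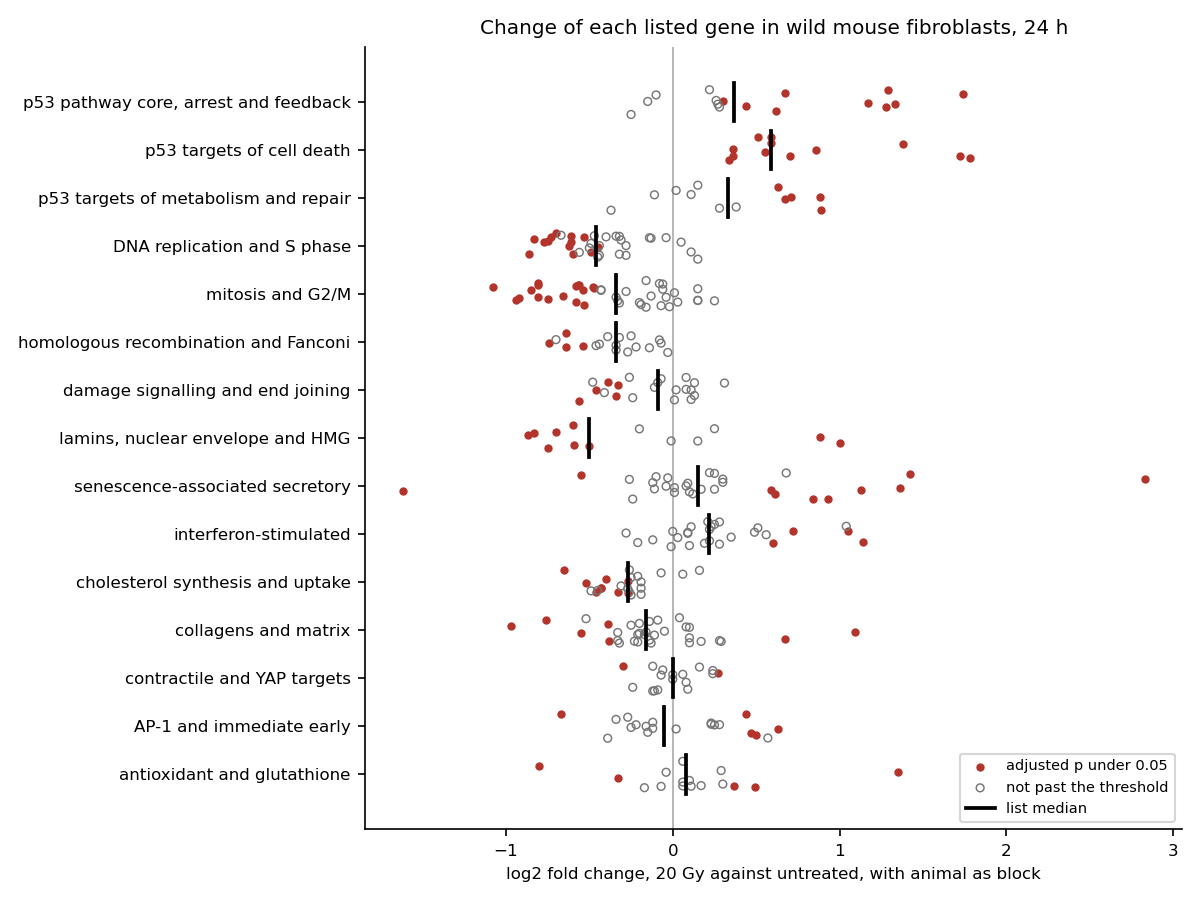
Log2 fold change at 20 Gy against untreated, with the animal as block, for every tested gene of 15 lists; filled points passed the threshold, open points did not, and bars are list medians. All 12 death genes are filled and right of 0, and no filled point of the replication, mitotic or recombination lists lies right of 0.

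Other abundant genes were called as well. Vimentin (Vim) rose by 0.27 ± 0.08, the latent TGF-β binding protein Ltbp2 by 0.6 ± 0.1, the basement membrane protein Nid1 by 0.41 ± 0.11 and the calcium-binding S100a6 by 0.39 ± 0.1 on the log2 scale (adjusted p = 0.0479, 0.00299, 0.0377 and 0.0285). The mitochondrial transcripts mt-Nd5 and mt-Nd2 rose by 0.32 ± 0.08 and 0.34 ± 0.07 (adjusted p = 0.019 and 0.0134), beside the higher mitochondrial share of the irradiated libraries. The glycolytic enzymes Ldha (-0.34 ± 0.09), Eno1 (-0.29 ± 0.08) and Pgk1 (-0.29 ± 0.07) fell, as did the chaperones Hspa5 (-0.44 ± 0.08) and Serpinh1 (-0.48 ± 0.1), of which the latter folds collagen (adjusted p = 0.0248, 0.0377, 0.0255, 0.00518 and 0.00969).

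In C56BL6 mice the same dose and time gave 2563 called of 14526 genes (17.6%), 1191 higher (8.2%) and 1372 lower (9.45%). Without the block it gave 13 (0.0895%). Mitotic genes had 11 called higher and 2 lower of 40 (median 0.11), among them Ube2c at 0.42, Aurka at 0.38, Nusap1 at 0.37 and Kif20a at 0.36 on the log2 scale (adjusted p = 0.00179, 0.00099, 0.00925 and 0.00215). Replication genes had 1 higher and 4 lower of 34 (median -0.05). The p53 core list had 8 higher and 1 lower (median 0.19) and the death list 8 higher and 0 lower (median 0.35). Immediate early genes had 0 higher and 14 lower of 20 (median -0.37).

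The difference between the populations was itself tested, as the interaction of population and dose with the animal as block: 101 of 15612 genes were called (0.647%), 85 with a higher change in wild mice (0.544%) and 16 with a lower one (0.102%). Kif11 and Cenpf were among the lower ones, by -0.83 and -0.91 on the log2 scale (adjusted p = 0.0486 and 0.039). Kif11 had a mean of 62.3 ± 12.0 CPM untreated and 61.6 ± 8.7 CPM at 20 Gy in C56BL6 mice against 52.6 ± 14.4 and 29 ± 4.5 CPM in wild mice (SD, n = 4 each, scaled over all mouse 24 h libraries). All 40 mitotic genes had a lower fitted change in wild mice (median difference -0.45), 2 of them called, and the same was true of 18 of 18 recombination genes (median -0.39, 0 called) and 31 of 34 replication genes (median -0.37, 0 called by edgeR). Lmnb1 (-0.66, adjusted p = 0.0437), Lmnb2 (-0.61, adjusted p = 0.0409) and Myc (-0.6, adjusted p = 0.0475) also fell further in wild mice.

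On the other side, Fgf2 rose further in wild mice by 0.74 and Loxl3 by 0.59 on the log2 scale (adjusted p = 0.0449 and 0.0313). The fitted change of Egr3 was higher in wild mice by 0.82 (adjusted p = 0.0294), and no immediate early gene was called higher in C56BL6 mice. Sod3 fell in both populations but less in wild mice, by a difference of 1.17 (adjusted p = 0.0095): C56BL6 cultures went from 14.8 ± 10.9 to 3.71 ± 2.69 CPM. Islr, a secreted leucine-rich protein, was called lower in C56BL6 mice (-1.47, adjusted p = 3.88e-07) and not in wild mice (0.02, adjusted p = 0.944), with a difference of 1.46 (adjusted p = 0.00656). The p53 genes showed 0 called differences by edgeR, with Cdkn1a at 0.79 (adjusted p = 0.112) and Mdm2 at 0.3 (adjusted p = 0.558). Without wild animal R1, R2, R3 and R4 the interaction called 608, 101, 40 and 56 genes. Of these, 253, 6, 3 and 5 had a lower change in wild mice.

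**Figure D5:**
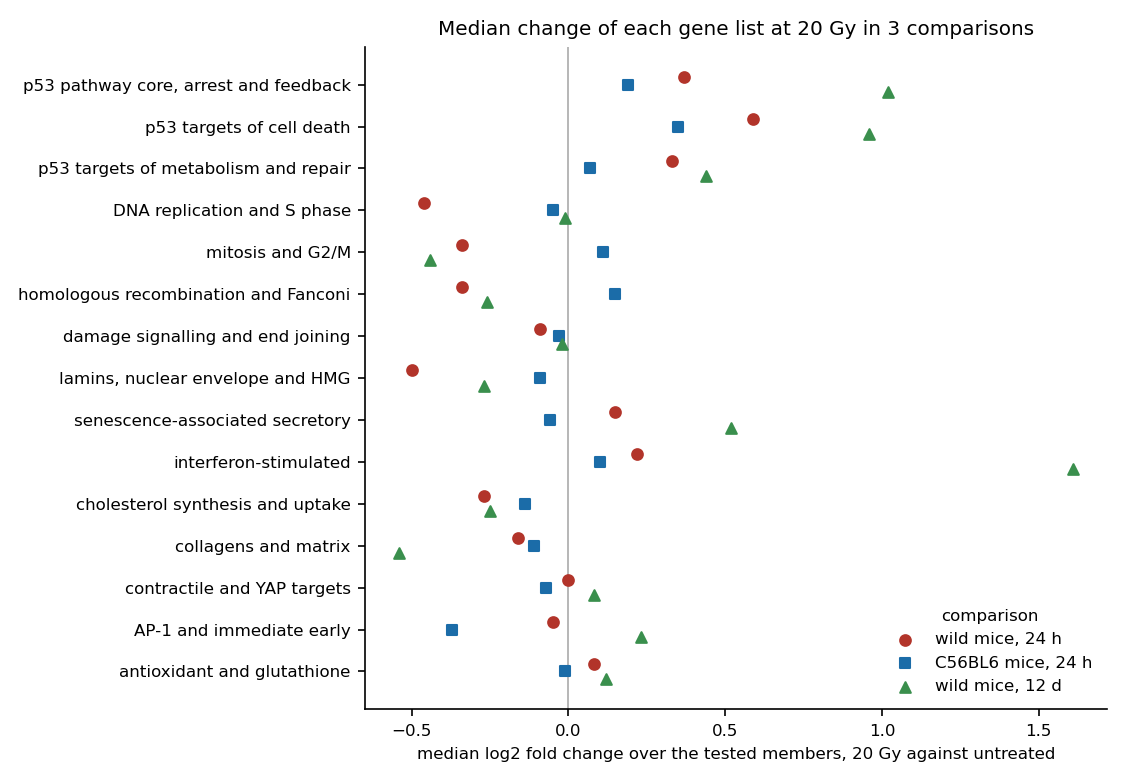
Median log2 fold change at 20 Gy over the tested members of each list, in wild mice at 24 h, C56BL6 mice at 24 h and wild mice at 12 d. At 24 h the wild and C56BL6 medians lie on opposite sides of 0 for the mitotic (-0.34 and 0.11) and recombination lists (-0.34 and 0.15), and the interferon list reaches 1.61 at 12 d.

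At 10 Gy, with the same untreated libraries, edgeR called 0 of 14412 genes (1564 at an unadjusted p under 0.05). The 10 Gy culture of R1 stood apart: it had 17.42 M reads, 17843 genes detected and 0.98% mitochondrial transcripts, and its deviations followed untreated R1 with a correlation of 0.44, below the 0.79 to 0.85 of the other numbers. Without replicate 1, a choice made after seeing the data, 3309 of 14418 genes were called at 10 Gy (23%), 1654 higher and 1655 lower (11.5% each), against 2399 at 20 Gy in the same 3 animals (16.6%), 1331 higher (9.19%) and 1068 lower (7.38%). In these animals 40 of 40 mitotic genes fell at 10 Gy (median -0.95) beside 23 at 20 Gy (median -0.52), 31 of 34 replication genes (median -0.94) beside 26 (median -0.63), and 18 of 18 recombination genes (median -1.03) beside 9 (median -0.47). Both doses share the untreated libraries.

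The doses were therefore also compared directly in those 3 animals, where 283 of 14620 genes were called (1.94%). At 20 Gy 236 genes were higher than at 10 Gy (1.61%) and 47 lower (0.321%). Among the higher ones were 33 of 40 mitotic, 10 of 34 replication and 8 of 18 recombination genes, with medians of 0.41, 0.25 and 0.49 beside -0.01 over all genes, and 0 genes of these lists were lower. Ccnb1 stood at 48.3, 64 and 56 CPM untreated, at 23.5, 31.4 and 33.3 CPM after 10 Gy and at 45.6, 56.5 and 46.4 CPM after 20 Gy in R2, R3 and R4. The middle dose thus gave the lowest level in each animal, and the log2 difference of 20 from 10 Gy was 0.75 ± 0.07 (adjusted p = 4.13e-09). Top2a, the topoisomerase that untangles chromosomes, had 247, 235 and 253 CPM, then 118, 96.4 and 107 CPM, then 216, 220 and 143 CPM (0.82 ± 0.07, adjusted p = 2.46e-09).

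Mki67 and Cenpf were not called between the doses, at -0.03 ± 0.06 and 0.22 ± 0.08 (adjusted p = 0.905 and 0.19), whereas Prc1 (0.73 ± 0.06), Ube2c (0.78 ± 0.07), Ect2 (0.43 ± 0.08) and Ccna2 (0.29 ± 0.06) were higher at 20 Gy (adjusted p = 2.46e-09, 4.13e-09, 0.000678 and 0.00713). Of the p53 core list, 4 genes were higher at 20 than at 10 Gy, among them Mdm2 (0.19 ± 0.04), Ccng1 (0.21 ± 0.05) and Trp53inp1 (0.34 ± 0.05), with adjusted p = 0.0121, 0.00571 and 0.000153, and Cdkn1a was not called (0.09 ± 0.04, adjusted p = 0.438). With all 4 pairs the direct comparison called 0 of 14623 genes (188 at an unadjusted p under 0.05, edgeR), so the order of the doses rests on leaving out replicate 1.

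At 12 d after 20 Gy, 2224 of 14399 genes were called in wild mice (15.4%), 1103 higher (7.66%) and 1121 lower (7.79%). The 12 d libraries of R1 deviated from their group like those of R4 at 24 h (correlation 0.68) and not like R1 at 24 h (-0.26), whereas R2, R3 and R4 followed their own numbers (0.59 to 0.76). Untreated R1 at 24 h was in turn nearest to untreated R3 at 12 d (0.4). At which time the R1 libraries depart from their number cannot be told from these correlations. Values are therefore also given without replicate 1 at 12 d, a choice made after seeing the data, where 288 of 14428 genes were called (2.0%), 166 higher (1.15%) and 122 lower (0.846%). Without the block, 10 of 14399 were called at 12 d (0.0694%). The p53 core list had 11 genes higher and 1 lower at 12 d (median 1.02), and 7 and 0 without replicate 1 (median 1.01), beside 9 and 0 at 24 h (median 0.37). The mitotic list had 0 higher and 3 lower (median -0.44), and 0 called without replicate 1 (median -0.51, edgeR).

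The interferon-stimulated list had 17 of 27 genes higher at 12 d (median 1.61), and 14 of 28 without replicate 1 (median 1.73), beside 4 of 27 at 24 h (median 0.22). Of the 24 h calls that could be tested at 12 d, 595 of 1755 were called at 12 d too (33.9%, or 27.9% of the 2135 called at 12 d), 544 of them in the same direction, and without replicate 1 at 12 d the shared calls were 129 of 1757 (7.34%, or 48% of 269). Hmga2 changed by 2.78 at 12 d and 1.0 at 24 h, and Il6 by 0.93 and -0.11 on the log2 scale (adjusted p = 0.00221 and 0.00979 at 12 d). Nqo1 changed by 0.73 at 12 d and 1.35 at 24 h, and Ptx3 by 0.04 and -1.43 (adjusted p = 0.0131 and 0.907 at 12 d). Without replicate 1 the 12 d changes were 2.63 for Hmga2, 1.06 for Il6, 0.65 for Nqo1 and 0.2 for Ptx3 (adjusted p = 0.019, 0.031, 0.0877 and 0.576), so Nqo1 was no longer called there. The times have separate untreated cultures, and the 12 d libraries carry the other batch label. Time and batch therefore cannot be told apart here, and the difference between the times was not tested.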

How the data were processed

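The deposited mouse table holds whole-number counts per gene that the authors made with featureCounts 2.0.3 on Ensembl release 108 and GRCm39, per the file headers; the command in the header sets no strand or multi-mapping option, so antisense partners and near-identical copies can share or lose reads. A gene length column, a number of another kind, was deposited beside the counts and was not used. Trim Galore and HISAT2 are named in the submitters' processing notes, with versions not given in the sources used here. All 56 count columns were assigned to libraries by name.

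Genes kept by edgeR's filterByExpr were scaled by TMM and tested with the quasi-likelihood F test (edgeR 4.0.16, R 4.3.3) with the replicate number as a block and Benjamini-Hochberg adjustment over all genes tested, at 0.05. The SE is the log2 change divided by the square root of F. CPM are scaled by TMM within the 8 libraries. Replicate numbers pair the libraries because the names repeat 1 code per number, and same-numbered libraries deviated together (0.87 to 0.91). Where nothing says that cultures are independent beyond the animal, p-values of the fits with the block measure the spread of the within-animal change over these samples. Because the samples were the fibroblasts of 4 animals per group, their number and the depth of 28.01 to 35.98 M counted reads limit the precision.

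The members and lists were chosen with earlier results of these data known. Named were a panel of 20 genes, of which 1 is not reported here, the 12 largest rises and 12 largest falls among called genes of at least 5 CPM that moved one way in all 4 pairs, the 3 lowest adjusted p of each list, the 4 largest interaction differences in each direction and the 10 most abundant called genes in each direction; members of the lists named beyond these were picked with their values known. The settings also tried were no block, RLE size factors, no filter, DESeq2 1.42.0, all 3 doses in 1 fit and leaving out each pair. Chosen after seeing the data were the fit of all 3 doses without the 10 Gy library of R1 and the 10 Gy, 20 against 10 Gy and 12 d comparisons without replicate 1. Counts of 14473 genes were simulated for the 20 Gy comparison. The test called 84 of 99 genes changed 2-fold (84.8%) and 100 of 100 changed 4-fold (100%). It also made 28 false calls, a larger share of its calls than the adjusted p threshold is set to allow. Smaller changes were not simulated. The median size of the called changes in the data was 0.55 on the log2 scale, below 2-fold, so these rates do not describe most of the calls.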

Additional observations from a re-analysis of the deposited data

Results flagged for a closer look

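Each result below had 1 library far from the other 3 of its group, by a gap above the 95% limit of Dixon's ratio; chance alone gives this in about 1 of 20 groups, and 21 of 221 groups met it. Animal R1 was the distant one in 13 of them, including 2 values of its 10 Gy library. In untreated R1, Top2a stood at 125 CPM (others 228 to 247), Kif11 at 30.8 (56.4 to 60.2), Isg15 at 6.39 (2.5 to 2.88), Fgf2 at 101 (11.3 to 25.4) and Lmod1 at 391 (101 to 149). In irradiated R1, Ddb2 stood at 1.36 CPM (2.88 to 2.99), Acta2 at 11800 (3880 to 5030), Fgf2 at 183 (37 to 55.3), Klf4 at 68.4 (110 to 111) and Megf10 at 11.2 (0.442 to 2.09), and 22729 genes were detected (22376 to 22381). The 10 Gy library of R1 had 17843 genes detected (21846 to 22253) and 0.98% mitochondrial transcripts (1.68 to 1.81%).

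The other animals gave fewer such values. Irradiated R2 had Pcna at 40.3 CPM (others 23.7 to 24.7), Sod3 at 52.3 (15.9 to 16.9) and Nid1 at 967 (1920 to 2050). Irradiated R3 had Fos at 75.3 CPM (9.6 to 16.9) and Loxl3 at 256 (509 to 545). R4 had Prl2c3 at 36.4 CPM (0.25 to 6.35) and Igfbp3 at 62.9 (0.969 to 11.3) untreated, and Lgr6 at 138 (47.4 to 52.7) irradiated.

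Genes whose change at 20 Gy differed between wild and C56BL6 mice by the interaction test were, with the wild minus C56BL6 difference on the log2 scale, Prl2c3 at 2.76, Prl2c2 at 2.48, Megf10 at 1.54 and Islr at 1.46 on the higher side, and Slfn2 at -1.15, Cenpf at -0.91, Kif11 at -0.83 and Myo7a at -0.77 on the lower side (edgeR, adjusted p = 0.00656, 0.042, 0.0226, 0.00656, 0.0354, 0.039, 0.0486 and 0.0475). Slfn2 was called higher in C56BL6 mice (1.09) and not in wild mice (-0.03). Megf10 and Myo7a were called in wild mice (1.53 and -0.92) and not in C56BL6 mice (-0.04 and -0.15).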

How the results depend on the processing

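No named gene that was called at 20 Gy changed sign under any alternative run. Named genes that were not called changed sign and stayed uncalled: with 1 pair left out Ccnb1 ranged from -0.16 to 0.06, E2f1 from -0.02 to 0.12, Isg15 from -0.09 to 0.18, Acta2 from -0.06 to 0.04, Slfn2 from -0.14 to 0.06 and Islr from -0.13 to 0.17. Slfn2 was 0.07 with all 3 doses in 1 fit and 0.0 by DESeq2, and Islr was -0.13 without the block, 0.0 without a filter and -0.01 with all 3 doses but without the 10 Gy library of R1. The immediate early list had 4 genes higher and 1 lower, but 0 higher and 1 lower without R3 or R4. RLE size factors (1775 genes) and DESeq2 (1877) kept the count of the comparison, no filter gave 2675 of more genes tested, and DESeq2 called 280 interaction genes and no filter 815. Leaving out 1 pair gave 642 to 2399 genes and 40 to 608 interaction genes, and per list 5 to 12 (p53 core), 6 to 12 (death), 5 (metabolism and repair), 1 to 26 (replication), 4 to 23 (mitosis), 0 to 9 (recombination), 0 to 7 (damage signalling), 8 to 10 (lamins), 8 to 13 (secretory), 0 to 2 (interferon), 5 to 10 (cholesterol), 4 to 8 (matrix), 0 to 4 (contractile), 1 to 8 (immediate early) and 3 to 5 (antioxidant).

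With no replicate block, so without the pairing by animal, 0 genes were called in the comparison, in the interaction and in each of the 15 lists, 13 in C56BL6 mice and 10 at 12 d (edgeR), beside 856 and 253 genes at an unadjusted p under 0.05 for the comparison and the interaction.

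With the 10 Gy libraries in the same fit 77 genes were called: 3 of the core list, 1 each of the death, metabolism, secretory, matrix and antioxidant lists and 0 of the other 9. Without the 10 Gy library of R1 that fit called 3095, with 7 recombination, 8 damage signalling, 14 cholesterol and 12 matrix genes. No filter called 24 replication, 9 recombination, 7 interferon, 18 matrix, 4 contractile and 9 immediate early genes. Without replicate 1, 3309 genes were called at 10 Gy, 283 between 20 and 10 Gy and 288 at 12 d. The cause of these shifts was not tested.

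What 4 animals a group and this depth can call below 2-fold was not tested.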
